A study of Mus musculus with 4 samples.

Results

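Cyclic AMP (cAMP) is the second messenger by which parathyroid hormone-related peptide, prostaglandins and other ligands act on cartilage cells. The 46 genes described here encode the proteins that make it, break it down and read it. Adenylyl cyclases make cAMP from ATP, and phosphodiesterases hydrolyse cAMP, its relative cGMP, or both. Protein kinase A is a tetramer of regulatory and catalytic subunits, from which cAMP releases the catalytic ones. A-kinase anchors hold the kinase at defined places in the cell, and factors of the CREB family carry the signal to DNA. The members were the 22 phosphodiesterases, 10 adenylyl cyclases, 6 protein kinase A subunits, 5 anchors and 3 CREB factors of a fixed list, and a peak belonged to a member when the authors had given it that gene's symbol. By this rule 322 of 56695 chondrocyte peaks and 4 of 1050 chondroprogenitor peaks belonged to a member.

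The peaks mark DNA rich in 5-hydroxymethylcytosine (5hmC), the oxidised 5-methylcytosine made by TET enzymes, which is often found along active genes and at enhancers. Both stages came from ATDC5, a mouse chondrogenic cell line. The 2 chondroprogenitor libraries were taken at day 0 in basal medium with serum and ascorbic acid. The 2 chondrocyte libraries, labelled day 19 and day 20, were taken after insulin, transferrin and selenite had been added to that medium. Each stage was given as 1 list of peaks from merged libraries (the later one headed day 20, with no word on the day 19 library), without a height, fold or p-value per peak, so replicate spread could not be measured, and no difference between stages or families has a test. The lists hold DNA positions and no RNA, so the cell type could not be checked against marker expression. Sequencing depth is not known. The chondrocyte list was 54.0 times as long as the chondroprogenitor list, and its peaks had a median width of 591 bp against 134 bp. Counts in the lists are therefore not amounts of 5hmC.

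Nearly every member had a chondrocyte 5hmC peak. A day 20 peak was assigned to 44 of the 46 members (95.7%, Wilson 95% interval 85.5 to 98.8%), while 43.9% of 21900 protein-coding genes had one. The exceptions were Pde12, a mitochondrial 2′-phosphodiesterase that acts on RNA rather than on cyclic nucleotides, and Crem, a CREB family factor with activating and repressing forms. A day 0 peak was assigned to 3 members (6.52%, 2.24 to 17.5%), Pde4d, Adcy9 and Akap13, against 1.81% of protein-coding genes. All intervals cover counting error only and take genes as independent. Members were chosen with earlier results of these data known, so these shares describe the list and not the whole pathway.

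Gene length goes with the chance of holding a peak, and the members were long, with a median of 98.2 kb against 17.1 kb for all protein-coding genes. Of the members under 50 kb, 9 of 10 had a day 20 peak, against 34.6% of genes of that class. Lengths still differed within it, with a median of 25.2 kb for members and 11.03 kb for all, and among genes of like length to those 9 members 41.0 to 64.8% had a peak. From 50 to 100 kb it was 12 of 13, against 71.8%. From 100 to 200 kb all 9 had one, against 81.9%, and over 200 kb all 14 had one, against 77.6%. For day 0 peaks the classes over 100 kb held all 3 members: 1 of 9 between 100 and 200 kb, where 5.63% of genes had one, and 2 of 14 over 200 kb, where 10.2% did. The day 0 count is thus close to the level of long genes. In peaks per 100 kb of gene the members exceeded their class throughout, with 6.43 against 3.95 under 50 kb, 4.80 against 3.50, 7.07 against 3.61, and 2.84 against 2.13 over 200 kb.

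**Figure D1:**
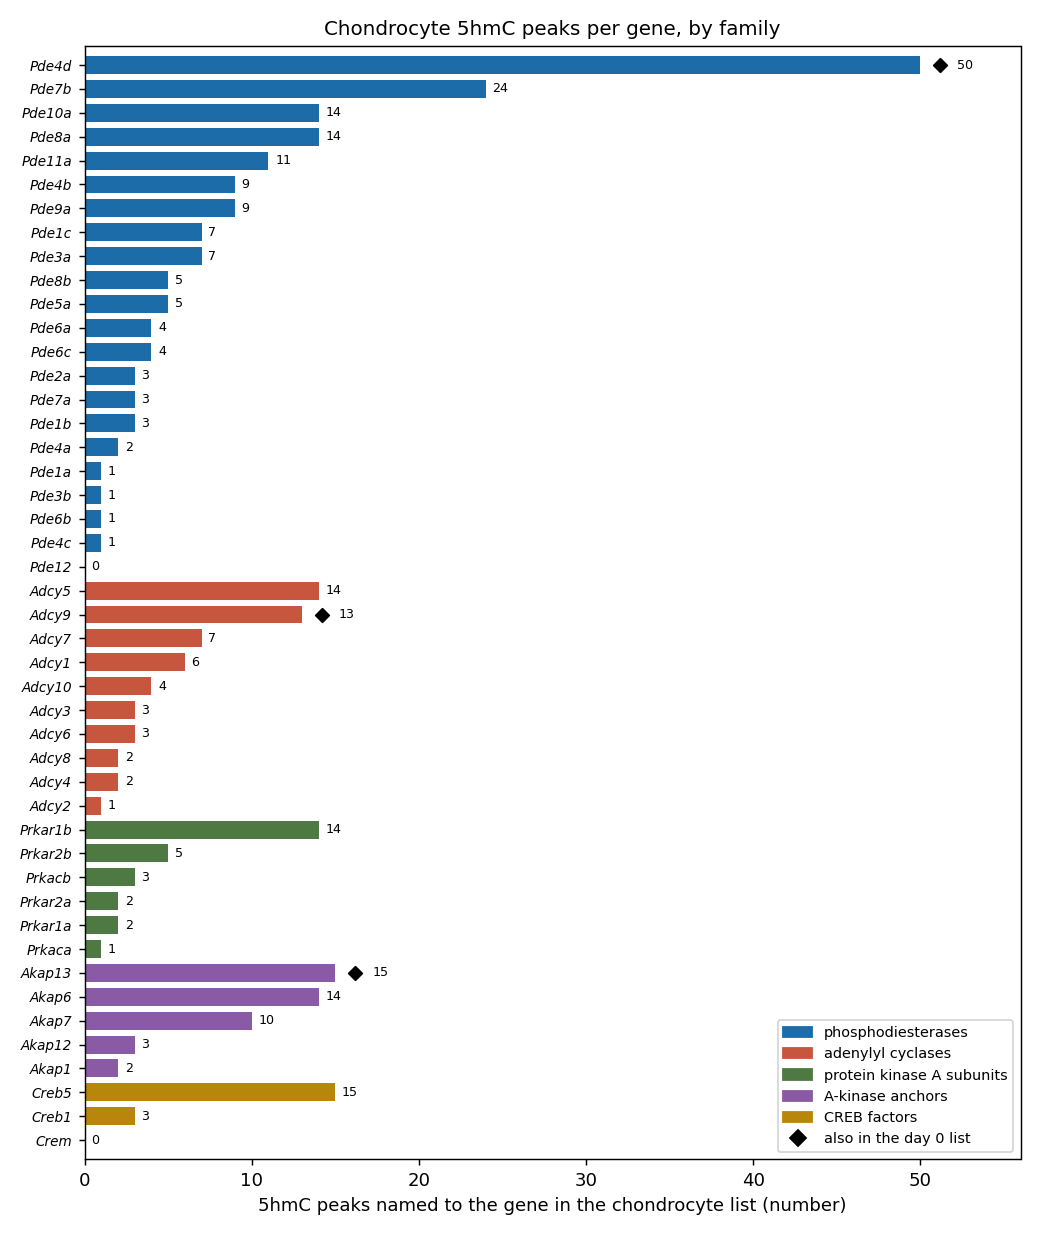
Number of chondrocyte 5hmC peaks assigned to each of the 46 members (bars, coloured by family), with a black diamond beside the 3 members that also had a day 0 peak. Pde4d stood apart with 50 peaks, 12 members had 10 or more, and Pde12 and Crem had none.

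Peaks were concentrated in a few members of each family. The 12 members with 10 or more day 20 peaks held 208 of the 322 (64.6%), and Pde4d alone held 15.5%. A further 26 members had 2 to 9 peaks and 6 had 1. Set beside protein-coding genes of 0.8 to 1.25 times its own length, itself included, a member had more peaks than the median gene in 34 of 46 cases, fewer in 6 and the same number in 6. Over all protein-coding genes in the same range of lengths, 39.4% lay above that median. Above the 75th percentile of genes of like length were 14 members, against 17.1% of all genes, and none lay below the 25th percentile. The 25th percentile was 0 or 1 for most members, so few members with a peak could have fallen below it. Neither share over all genes is weighted to the members' lengths. Genes under 50 kb are more common among all genes than among members. For such genes the median can be 0, so ties with it are common, and the shares are a rough guide only.

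**Figure D2:**
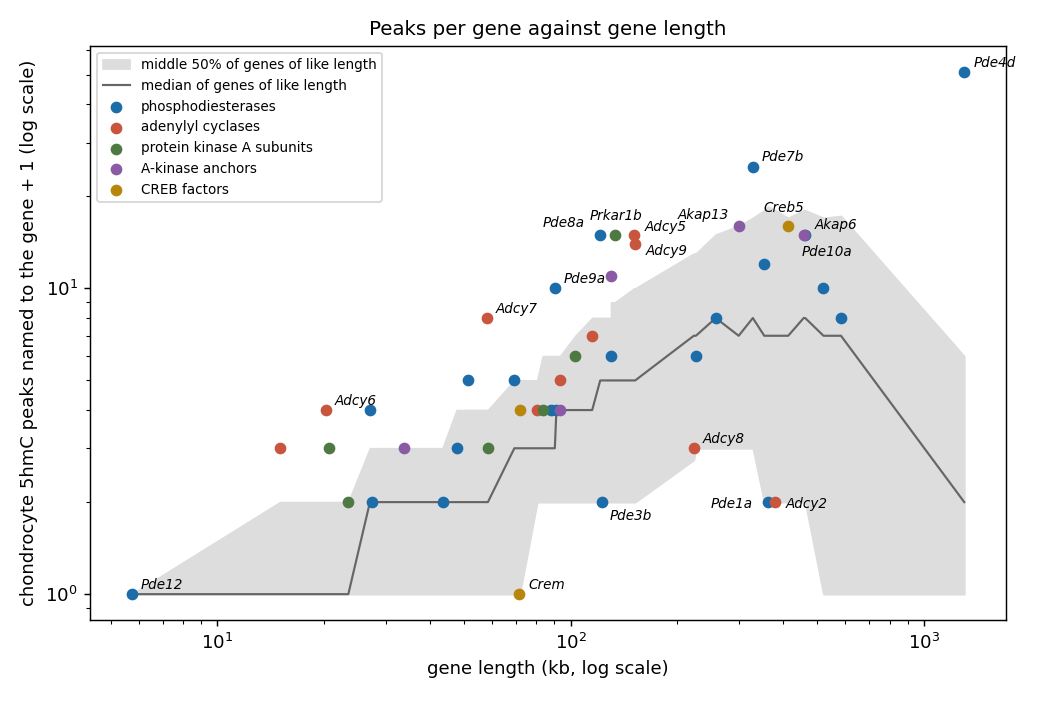
Chondrocyte 5hmC peaks per member plus 1 against gene length (both on log scales), with the median and the middle 50% of protein-coding genes of like length in grey. Pde4d, Pde7b, Pde8a, Prkar1b, Adcy5, Adcy9, Adcy7 and Pde9a are among the 14 members above the grey band, and Pde1a, Adcy2, Adcy8 and Pde3b are among the 6 below the median line.

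Every adenylyl cyclase (10 of 10), protein kinase A subunit (6 of 6) and listed anchor (5 of 5) had a day 20 peak. So did 21 of 22 phosphodiesterases and 2 of 3 listed CREB factors. The listed anchors and CREB factors are only part of their families. Off the member list, 4 of 10 other anchors and 6 of 11 other CREB family factors and coactivators had one. With families this small the intervals are wide and overlap: the lower limits were 72.2% for cyclases, 61.0% for kinase subunits and 56.6% for anchors, phosphodiesterases spanned 78.2 to 99.2%, and CREB factors 20.8 to 93.9%. Per 100 kb of gene, protein kinase A subunits held 6.39 peaks (27 peaks in 0.422 Mb, counting interval 4.21 to 9.30) and phosphodiesterases 3.35 (178 peaks in 5.31 Mb, 2.88 to 3.88). Anchors held 4.34 (44 peaks, 3.16 to 5.83), cyclases 4.27 (55 peaks, 3.22 to 5.56) and CREB factors 3.24 (18 peaks, 1.92 to 5.11). The interval of kinase subunits lies above that of phosphodiesterases, but Prkar1b alone held 14 of the 27 kinase peaks. Without it the rate was 4.50 (13 peaks, 2.40 to 7.69), which overlaps the interval of phosphodiesterases. The order of families also turned with the way peaks were counted. By gene body CREB factors held 40 peaks, or 7.19 per 100 kb, above the 6.87 of kinase subunits, and the median over cyclase genes was 6.87 where their summed length gave 4.27. The families differ in gene length as well. Median gene length was 70.8 kb for kinase subunits and 122 kb for phosphodiesterases, and over all genes peaks per 100 kb were lowest, at 2.13, in genes over 200 kb.

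Among phosphodiesterases, the enzymes specific for cAMP held the most peaks. Those specific for cGMP held more per 100 kb, though on few peaks and largely through Pde9a. The 8 genes of the PDE4, PDE7 and PDE8 groups, which hydrolyse cAMP, held 108 peaks, or 4.06 per 100 kb, and 4.27 per 100 kb without Pde4d. The 8 genes of the dual-substrate groups PDE1, PDE2, PDE3, PDE10 and PDE11 held 47, or 2.08 per 100 kb, in 2.26 Mb of gene. The 5 genes of the cGMP-specific groups PDE5, PDE6 and PDE9 held 23 in 0.384 Mb, or 5.99 per 100 kb. Without Pde9a their rate was 4.76, on 14 peaks, near the 4.27 of the cAMP-specific class without Pde4d. Without Pde10a the dual-substrate rate was 1.84. The dual-substrate count depends on how peaks were named. By gene body Pde10a, Pde11a and Pde1c held 27, 12 and 10 peaks, where symbols gave 14, 11 and 7. Pde1b and Pde2a held 2 each, where symbols gave 3 each. In the cAMP-specific class only Pde4a and Pde8a changed, from 2 and 14 to 1 and 13. In the cGMP-specific class only Pde9a changed, from 9 to 8. These classes come from textbook substrate preference, and their counts are a description. No interval was computed for their rates.

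Pde4d, which encodes a cAMP-specific enzyme with many isoforms, is a gene of 1302 kb at chr13:108654177-109955969 (GRCm38). It had 2 day 0 and 50 day 20 peaks and ranked 5 among 21900 protein-coding genes by day 20 peaks. Of the 45 genes of like length, Pde4d included, 95.6% had fewer, and their median was 1 peak. The peaks ran the whole length of the gene, with 9, 5, 9, 13 and 14 in 5 parts of equal length from the 5′ end, a median gap of 18.8 kb and a longest gap of 99.1 kb. Its densest 100 kb held 10 peaks (109632523 to 109728298). Widths ran from 287 to 1016 bp, and 1 of the 50 exceeded 1 kb. The other PDE4 genes had far fewer: Pde4b, a long gene of 519.9 kb, had 9, Pde4a had 2 and Pde4c had 1.

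In the pairs PDE7 and PDE8, 1 gene of each pair held most of the peaks. Pde7b had 24 in 328 kb and Pde7a had 3 in 88.2 kb, and only 6.07% of genes of like length had more peaks than Pde7b. Pde8a, an enzyme with very high affinity for cAMP, had 14, of which 13 lay inside its 121 kb and 1 just outside, and 1.48% of genes of like length had more than 14. Its relative Pde8b had 5 in 226 kb, below the like-length median of 6. In Pde7b the peaks left a gap of 80.9 kb between 20549239 and 20630168. In Pde8a, 13 of the 14 peaks lay within 96.4 kb (81225322 to 81321683).

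Of the dual-substrate enzymes, Pde10a had 14 peaks and Pde11a 11. The calcium- and calmodulin-stimulated PDE1 genes had 1 in Pde1a, 3 in Pde1b and 7 in Pde1c. Pde1a spans 362 kb, and 73.0% of genes of like length had more peaks. The cGMP-stimulated Pde2a had 3, and the cGMP-inhibited Pde3a and Pde3b, which limit cAMP in muscle and fat, had 7 and 1. Among cGMP-specific genes, Pde9a, of 90.2 kb, had 9 (8 inside the gene and 1 at 1592 bp outside), a number that 4.61% of genes of like length exceeded, and Pde5a, the target of sildenafil, had 5. The catalytic subunits of the photoreceptor enzyme also had peaks, with 4 in Pde6a, 1 in Pde6b and 4 in Pde6c. Peaks were therefore assigned to genes known mainly for a role in the retina as well.

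Adenylyl cyclases ranged from 1 to 14 peaks. Adcy5 at chr16:35154494-35305743 and Adcy9 at chr16:4284886-4437236, of 151 and 152 kb, led with 14 and 13. Among genes of like length, 4.76% had more than Adcy5 and 7.10% more than Adcy9. Adcy5 encodes a calcium-inhibited cyclase, and Adcy9 the membrane cyclase that responds poorly to forskolin. Adcy6, the close relative of Adcy5, is a gene of only 20.3 kb and had 3 peaks, 2 inside it and 1 at 4045 bp outside. Adcy7, of 57.8 kb, had 7, a number that 1.93% of genes of like length exceeded. Of these 6 lay inside the gene and 1 at 4629 bp outside.

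The calcium-stimulated cyclases Adcy1, Adcy3 and Adcy8 had 6, 3 and 2 peaks, and the soluble cyclase Adcy10, which is switched on by bicarbonate, had 4. Adcy4 had 2 in 15.0 kb. Adcy2 was sparse, with 1 peak in 379.6 kb, and 72.5% of genes of like length had more. Long cyclase genes thus differed widely: Adcy2 and Adcy8, of 379.6 and 223 kb, held 3 peaks together, and the shorter Adcy5 and Adcy9 held 27.

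**Figure D3:**
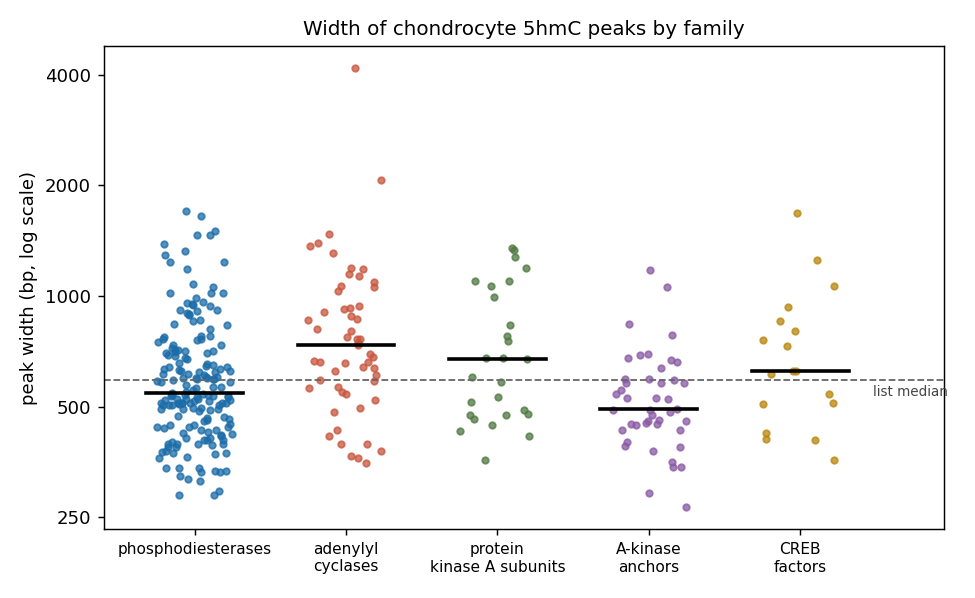
Width of each chondrocyte 5hmC peak (points, log scale) by family, with the family median (black bar) and the median of the whole list, 591 bp (dashed). Cyclase peaks have a median of 735 bp and anchor peaks 492 bp, and the highest point is the 4171 bp peak in Adcy5.

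Cyclase peaks were wide. Their median width was 735 bp (95% interval of the median 639 to 865 bp), above the 591 bp of the whole list, and 14 of 55 (25.5%) exceeded 1 kb, against 12.4% of the list. Without Adcy5 the median was 657 bp, with 8 of 41 over 1 kb. The widest member peak lay in Adcy5 (35228990 to 35233160 on chromosome 16), spanned 4171 bp and ranked 7 in width among all 56695 peaks. It sat near the middle of the gene, 74.1 kb downstream of the annotated start. Adcy7 held the next widest, of 2072 bp. Without a height per peak it is not known whether such a peak is 1 broad domain or several joined ones.

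In protein kinase A subunits 7 of 27 peaks (25.9%) exceeded 1 kb, and the median was 672 bp (477 to 995 bp). Of those 7, 6 were in Prkar1b, and the other subunits had 1 of 13 over 1 kb and a median of 475 bp. Phosphodiesterase peaks had a median of 544 bp (522 to 596 bp), with 8.99% over 1 kb. Anchor peaks were narrow, with a median of 492 bp (456 to 580 bp) and 2 of 44 over 1 kb. CREB factor peaks had a median of 626 bp (507 to 853 bp). Peaks of 1 gene are not independent, so these intervals may be too narrow. After the 2 cyclase peaks, the widest member peak was 1 of 1704 bp in Pde10a (8926933 to 8928636 on chromosome 17).

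Protein kinase A genes were led by a regulatory subunit. Prkar1b, which encodes a regulatory subunit best known from brain, had 14 peaks in 133 kb, and 2.92% of genes of like length had more. The other regulatory subunits had 5 (Prkar2b), 2 (Prkar2a) and 2 (Prkar1a, the ubiquitous subunit). The catalytic subunits had 3 (Prkacb) and 1 (Prkaca). All 6 genes lay above the median of genes of like length, although for Prkaca that meant 1 peak against 0.

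Anchors held 10 or more peaks in 3 of 5 genes. Akap13, which also activates the small GTPase RhoA, had 15 day 20 and 1 day 0 peaks, Akap6, the muscle anchor of the nuclear envelope, had 14, and Akap7 had 10. Akap12 had 3 and the mitochondrial anchor Akap1 had 2. In Akap6 the peaks were gathered: 10 of 14 lay in 74.9 kb (52780056 to 52854949 on chromosome 12), and a gap of 154.6 kb followed further on, the longest between named peaks in the 12 members with 10 or more. In Akap13 they were spread, with a longest gap of 43.2 kb.

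Of the CREB factors, Creb5 had 15 peaks and Creb1, the founding cAMP-responsive activator, had 3. Crem at 71.4 kb had none, and 27.0% of genes of like length shared that state.

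Pde10a and Creb5 held many more peaks than their symbols show. Over all members, 356 peaks overlapped a gene body by position. Of these, 33 had no symbol and 10 another one, and 35 of those 43 lay in Pde10a and Creb5. In Pde10a, 13 unnamed peaks lay between 8525209 and 8792732, before the first named peak at 8827024. In Creb5, 14 unnamed peaks and 8 under the noncoding symbol 9430076C15Rik lay between 53289415 and 53563125, before the first named peak at 53572314. All of them lay on the 5′ side of the named peaks. By position Creb5 thus held 37 peaks and Pde10a 27. In Prkar1b likewise, 3 peaks on the 5′ side of the named ones carried no symbol or that of Heatr2, in Pde1c 3 had none, in Adcy9 1 had none, and in Pde11a 1 carried the symbol Ttc30a1. Symbol and gene body gave the same count in 31 members, and 9 members had 1 named peak outside the annotated gene, at most 6791 bp away (in Adcy1).

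**Figure D4:**
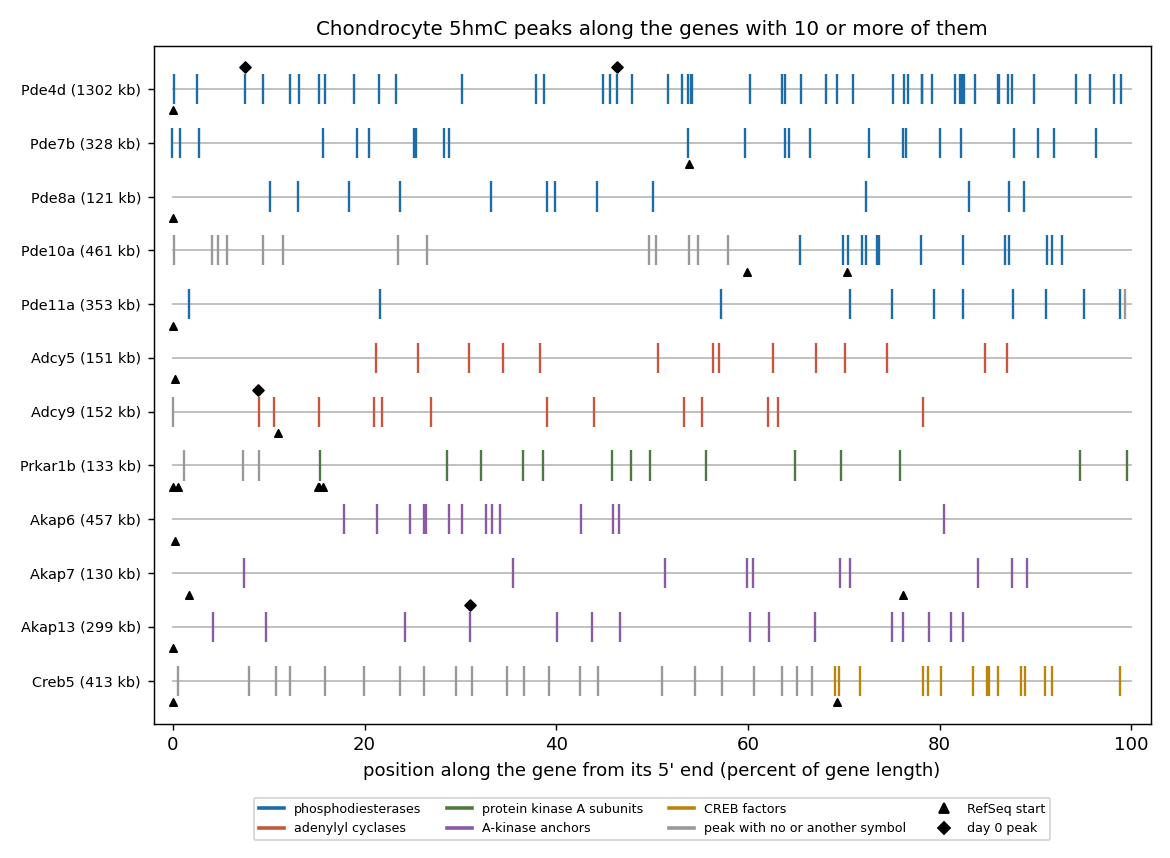
Chondrocyte peaks (coloured ticks) along the 12 members with 10 or more of them, from the 5′ end (0) to the 3′ end (100% of gene length), with annotated starts as triangles and day 0 peaks as diamonds. Grey ticks are peaks with no or another symbol, which fill the 5′ part of Creb5 and of Pde10a.

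Every day 0 peak of a member lay inside a wider day 20 peak. Over the whole day 0 list, 520 of 1050 peaks overlapped a day 20 peak. In Pde4d, the day 0 peaks at chr13:108752578-108752716 (139 bp) and chr13:109257728-109257857 (130 bp) fell in day 20 peaks of 709 and 708 bp, 98.5 and 603.6 kb from the gene's 5′ end. In Adcy9, the day 0 peak at chr16:4423707-4423834 (128 bp) fell in a day 20 peak of 904 bp, 13.5 kb from the 5′ end. In Akap13, the day 0 peak at chr7:75548292-75548427 (136 bp) fell in a day 20 peak of 494 bp, 92.8 kb from the 5′ end. The day 20 peaks were 3.63 to 7.06 times as wide, and over the whole lists the median widths were 591 and 134 bp. All 4 positions were inside genes and none was within 1 kb of an annotated start.

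Most member peaks lay far from a matched start. RefSeq promoter entries, and with them start sites and strand, were matched for 36 members, which held 286 of the 322 peaks. No entry was matched for Pde3a, Pde3b, Pde6a, Pde6c, Pde7a, Pde9a, Adcy6, Adcy8, Akap12 and Crem. In some long members the matched starts lay far inside the gene. The only Pde7b start was at 20548328, with the 5′ end of the gene at 20725078. The first Pde10a start was at 8801745, with the gene beginning at 8525187. Distances to a start therefore refer to matched starts, which may be incomplete. Of the 286 peaks, 33 lay within 5 kb of an annotated start of their gene (11.5%, 8.34 to 15.8%), against 21.8% of 25623 peaks assigned to protein-coding genes with an entry. The median distance was 76.4 kb against 25.4 kb. Length matters here too. In genes over 200 kb the shares were 5.42% for members and 5.61% for all, from 100 to 200 kb they were 7.41% and 10.6%, and from 50 to 100 kb 28% and 18.9%, while in genes under 50 kb 11 of 14 member peaks lay within 5 kb, against 46.0%.

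By family, 6 of 27 kinase subunit peaks (22.2%), 8 of 50 cyclase peaks (16%), 16 of 150 phosphodiesterase peaks (10.7%), 2 of 18 CREB factor peaks and 1 of 41 anchor peaks (2.44%, 0.432 to 12.6%) were within 5 kb of a start. The intervals of these shares overlap between anchors and each of the other families, the nearest being kinase subunits with 10.6 to 40.8%. By position in the gene body, whatever the symbol, 45.0% of 322 peaks in members with a known strand lay in the 5′ part up to the midpoint, against 52.8% over protein-coding genes. In genes over 200 kb the shares were 39.0% of 205 peaks for members and 49.5% of 7672 for all. Over all lengths, the share was 38% in phosphodiesterases, 40% in CREB factors, 53.1% in cyclases, 56.1% in anchors and 62.1% in kinase subunits. For named peaks alone it was 40.9%, which leaves out the unnamed 5′ peaks of Creb5 and Pde10a.

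Within 1 kb of a start lay 22 peaks of 19 members: 4 over the start itself, 12 upstream and 6 downstream. With all lengths pooled, that is 7.69% of the 286 peaks, close to the 8.29% of peaks over all protein-coding genes with an entry. The members were Pde1b, Adcy7 and Creb5 with 2 each, and Pde2a, Pde4a, Pde4b, Pde4d, Pde7b, Pde8a, Pde8b, Pde10a, Adcy3, Adcy4, Adcy9, Prkaca, Prkar1a, Prkar1b, Prkar2a and Prkar2b with 1 each. No anchor was among them. Split by gene length, the members' share of peaks within 1 kb was the higher in each class. It was 42.9% against 18.3% under 50 kb and 20% against 6.62% from 50 to 100 kb. From 100 to 200 kb it was 4.94% against 3.35%, and over 200 kb 4.22% against 2.15%. Each class held only 4 to 7 such member peaks. A day 20 peak reached into a promoter window, from 250 bases before to 50 bases from a start on, in 10 of 36 members (27.8%), against 4.2% of 17492 protein-coding genes. In each length class the members' share was the higher, from 3 of 9 against 3.77% under 50 kb to 3 of 12 against 6.72% over 200 kb. Members also had more annotated starts per gene, 2.14 against 1.22. Per window, a peak reached 15 of 77 member windows (19.5%) and 796 of 21238 protein-coding windows (3.75%). Whether the number of starts bears on the share of genes was not tested.

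The sequences of windows that a peak reached show how CpG lay in them. In the windows below (RefSeq, GRCm38.p6, 5′ to 3′ on the strand of the gene, with the start at base 251), capitals mark every CpG, the dinucleotide at which 5-methylcytosine and 5hmC mostly occur. In the first set the peak covered the start itself, and the windows were poor in CpG. The peak over the Pde10a window (chr17:8849735-8850034, plus strand) covered all of it, as did those over Adcy7 (chr8:88282742-88283041, plus strand) and Prkar1a (chr11:109648773-109649072, plus strand), while the peak at Prkar1b (chr5:139130337-139130636, minus strand) covered 190 of the 300 bases. They held 5, 6, 3 and 4 CpG in that order.
Pde10a: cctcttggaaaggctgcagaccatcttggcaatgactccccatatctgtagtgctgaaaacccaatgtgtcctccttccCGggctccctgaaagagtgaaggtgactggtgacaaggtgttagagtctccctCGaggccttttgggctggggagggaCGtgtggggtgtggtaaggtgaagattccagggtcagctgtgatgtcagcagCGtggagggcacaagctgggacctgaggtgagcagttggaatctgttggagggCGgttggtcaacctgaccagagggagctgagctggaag
Adcy7: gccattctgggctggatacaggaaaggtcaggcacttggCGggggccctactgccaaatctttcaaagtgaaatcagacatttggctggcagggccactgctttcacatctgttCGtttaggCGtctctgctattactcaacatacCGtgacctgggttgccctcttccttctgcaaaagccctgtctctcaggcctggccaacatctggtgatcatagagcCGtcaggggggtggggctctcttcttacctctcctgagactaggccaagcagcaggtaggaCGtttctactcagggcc
Prkar1a: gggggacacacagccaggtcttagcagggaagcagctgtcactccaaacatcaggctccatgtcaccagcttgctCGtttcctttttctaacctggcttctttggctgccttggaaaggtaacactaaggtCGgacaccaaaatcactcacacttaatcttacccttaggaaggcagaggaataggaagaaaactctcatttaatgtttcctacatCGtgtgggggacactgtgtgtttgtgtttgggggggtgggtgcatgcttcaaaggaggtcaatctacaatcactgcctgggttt
Prkar1b: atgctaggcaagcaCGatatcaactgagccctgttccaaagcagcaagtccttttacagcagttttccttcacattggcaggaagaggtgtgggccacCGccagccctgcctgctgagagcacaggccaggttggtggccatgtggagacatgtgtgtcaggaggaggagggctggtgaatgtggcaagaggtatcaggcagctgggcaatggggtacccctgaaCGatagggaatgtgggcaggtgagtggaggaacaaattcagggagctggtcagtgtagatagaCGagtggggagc

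In the second set, 5 windows were chosen that are dense in CpG and in which the peak stopped before the start. The peak ended 108 bases before the Pde1b start (chr15:103502784-103503083, plus strand, 28 CpG), 105 before that of Pde4a (chr9:21165464-21165763, plus strand, 29 CpG), 125 before that of Pde8a (chr7:81213015-81213314, plus strand, 34 CpG), 165 before that of Pde8b (chr13:95223043-95223342, minus strand, 37 CpG) and 204 before that of Adcy3 (chr12:4133147-4133446, plus strand, 33 CpG). It thus overlapped only the outer 143, 146, 126, 86 and 47 bases.
Pde1b: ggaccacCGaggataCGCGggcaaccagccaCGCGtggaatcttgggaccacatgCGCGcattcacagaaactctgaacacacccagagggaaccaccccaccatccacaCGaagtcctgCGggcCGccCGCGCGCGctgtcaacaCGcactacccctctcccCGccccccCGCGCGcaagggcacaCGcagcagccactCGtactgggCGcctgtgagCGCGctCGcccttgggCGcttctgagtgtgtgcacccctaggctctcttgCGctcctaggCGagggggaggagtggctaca
Pde4a: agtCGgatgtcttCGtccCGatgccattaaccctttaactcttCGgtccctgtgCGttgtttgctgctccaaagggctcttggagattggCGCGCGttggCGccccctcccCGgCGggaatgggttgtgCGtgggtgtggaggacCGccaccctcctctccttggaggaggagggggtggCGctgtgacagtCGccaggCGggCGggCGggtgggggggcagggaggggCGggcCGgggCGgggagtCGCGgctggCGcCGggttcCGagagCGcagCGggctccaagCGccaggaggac
Pde8a: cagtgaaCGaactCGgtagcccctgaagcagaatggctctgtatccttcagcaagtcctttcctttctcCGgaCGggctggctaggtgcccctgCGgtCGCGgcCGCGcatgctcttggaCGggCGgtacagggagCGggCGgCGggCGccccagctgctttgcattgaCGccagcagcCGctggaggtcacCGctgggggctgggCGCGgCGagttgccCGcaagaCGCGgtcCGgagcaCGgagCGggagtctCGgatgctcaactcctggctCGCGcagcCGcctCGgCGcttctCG
Pde8b: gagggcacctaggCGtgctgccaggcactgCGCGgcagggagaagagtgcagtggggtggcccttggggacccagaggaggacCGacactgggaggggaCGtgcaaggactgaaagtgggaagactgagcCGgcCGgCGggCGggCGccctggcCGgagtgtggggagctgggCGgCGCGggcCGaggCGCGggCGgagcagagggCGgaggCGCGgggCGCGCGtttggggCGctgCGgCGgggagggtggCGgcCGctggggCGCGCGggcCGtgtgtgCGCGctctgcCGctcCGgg
Adcy3: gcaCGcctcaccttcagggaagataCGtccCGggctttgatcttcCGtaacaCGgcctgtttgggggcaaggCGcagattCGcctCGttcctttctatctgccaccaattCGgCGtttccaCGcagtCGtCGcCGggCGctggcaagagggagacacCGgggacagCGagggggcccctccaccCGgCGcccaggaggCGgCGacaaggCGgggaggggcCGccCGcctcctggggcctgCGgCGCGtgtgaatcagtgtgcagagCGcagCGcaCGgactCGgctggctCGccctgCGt

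Over all 77 member windows, the 6 with a peak over the start held 3 to 7 CpG, with a median of 4.5. The 9 with a peak beside the start had a median of 33, and in all 9 the peak lay before the start. The 2 of those 9 that were poor in CpG were a window of Creb5 with 4 and one of Adcy7 with 5. In Prkar1b the peak over the start printed above also reached 6 bases into a window with 37 CpG, without covering its start. The 62 without a peak had a median of 10. The same order held over protein-coding genes, with medians of 6 in 469 windows with a peak over the start, 18 in 327 windows with a peak beside it and 13 in 20442 windows without one. In 295 of those 327 windows the peak lay before the start. Of the windows with 20 or more CpG, a number chosen after the values were seen, 0 of 29 member windows and 20 of 7630 protein-coding windows (0.262%) had a peak over the start. Below that number it was 6 of 48 and 449 of 13608 (3.30%). For peaks beside the start the split over protein-coding windows was small, with 148 windows (1.94%) at 20 or more CpG and 179 (1.32%) below. In members it was 7 of 29 and 2 of 48. Several windows of 1 gene overlap and share a peak, as in Pde8b, Prkar1a and Prkar1b, so windows are not independent.

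**Figure D5:**
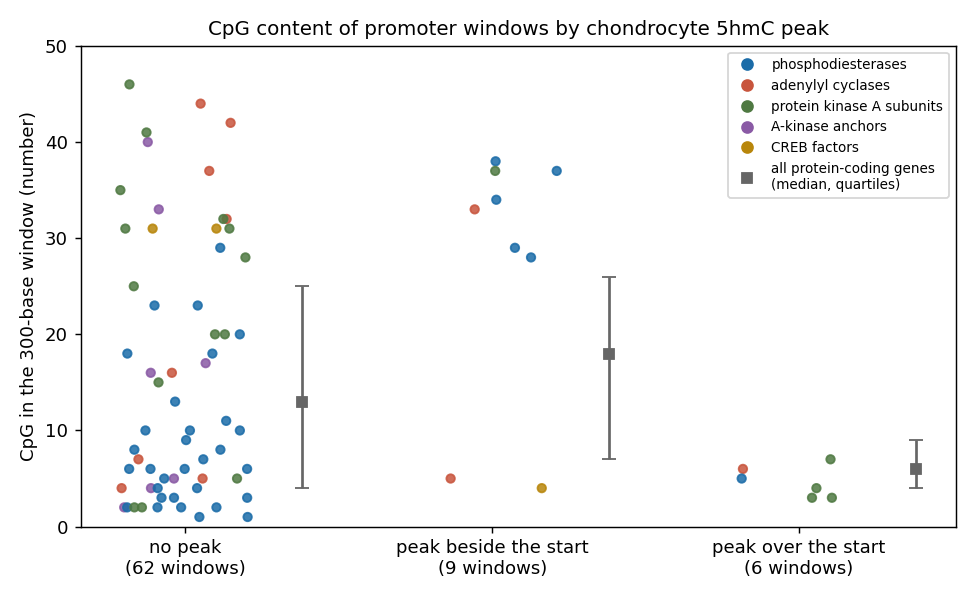
CpG number in each of the 77 promoter windows of members (points, coloured by family) by whether a chondrocyte peak was absent, beside the start or over it, with medians and quartiles over all protein-coding windows as grey squares. The 6 windows with a peak over the start hold at most 7 CpG, and 7 of the 9 with a peak beside it hold 28 or more.

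Prkar1a has 6 annotated starts within a few kilobases. The first 2, with 3 and 7 CpG, were covered by 1 peak of 1191 bp (109648460 to 109649650), and the other 4, with 15 to 46 CpG, met none. One of those 4 (chr11:109650699-109650998, plus strand, 25 CpG) holds the full cAMP response element TGACGTCA at base 202, 49 bases before the start, and a window of Creb5 (chr6:53287053-53287352, plus strand, 31 CpG) holds it at base 206, 45 bases before the start. Both windows are printed because CREB factors bind this element.
Prkar1a: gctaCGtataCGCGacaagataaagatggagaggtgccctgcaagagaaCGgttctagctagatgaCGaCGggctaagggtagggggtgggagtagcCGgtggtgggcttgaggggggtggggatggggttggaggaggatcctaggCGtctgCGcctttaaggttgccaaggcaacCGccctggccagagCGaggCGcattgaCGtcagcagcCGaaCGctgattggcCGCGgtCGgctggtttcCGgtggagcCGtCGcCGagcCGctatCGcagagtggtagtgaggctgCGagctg
Creb5: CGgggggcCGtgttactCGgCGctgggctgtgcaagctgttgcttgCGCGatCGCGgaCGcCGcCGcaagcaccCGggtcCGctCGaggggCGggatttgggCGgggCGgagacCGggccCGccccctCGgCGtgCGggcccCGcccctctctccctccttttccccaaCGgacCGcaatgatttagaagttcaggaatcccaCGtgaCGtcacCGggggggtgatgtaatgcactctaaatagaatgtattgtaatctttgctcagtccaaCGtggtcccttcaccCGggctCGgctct

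Both strands were searched, and the element reads the same on each. It was found in 3 of 77 member windows, 2 of which overlap in Prkar1a, and in 475 of 21238 protein-coding windows (2.24%). The shorter TGACG, which the full element contains, was found on either strand in 16 of 77 member windows (20.8%) and in 23.6% of all. No day 20 peak overlapped the 3 member windows with the full element, and over protein-coding genes 10 of the 475 windows (2.11%) had one. A match is a string of letters, not evidence of binding.

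Other genes of the pathway had a peak in a smaller share of cases than the members, and were shorter. On a list of related genes, 66 of 102 (64.7%, 55.1 to 73.3%) had a day 20 peak and 4 a day 0 peak. With the older symbol Drd1a counted for the dopamine receptor gene Drd1, which had 1 peak under that name, the number was 67 (65.7%). Their median length was 36.8 kb, against 98.2 kb for members. G protein alpha subunits that act on cyclic nucleotides had a peak in 9 of 9, with 16 in Gnao1, 5 in Gnai3, 4 in Gnai1 and 3 in Gnas, which encodes the stimulatory subunit. Ligands and receptors coupled to cAMP had one in 19 of 32 (20 with Drd1), with few each: 5 in Ramp1, a receptor partner, 4 in Vipr2 and 3 in Pth2r. Parathyroid hormone-related peptide (Pthlh) and its receptor (Pth1r), central to the growth plate, had 2 each.

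Other effectors and inhibitors of cAMP had a peak in 16 of 22. Sik3, a kinase that protein kinase A inhibits and that controls chondrocyte hypertrophy, had 25 in 211 kb. Rapgef4, a cAMP-activated exchange factor, had 22 and 1 day 0 peak, and Pkig, an inhibitor of protein kinase A, had 4. Other CREB family factors and coactivators had one in 6 of 11, with 7 in Creb3l2, 5 in Crtc3 and 5 in Creb3l1. Other anchors had one in 4 of 10, with 5 in Akap2, 3 day 20 and 2 day 0 peaks in Akap9, and 2 in Akap10. Of 4 further phosphodiesterase genes 3 had one, with 6 day 20 and 1 day 0 peaks in Pde4dip, 4 and 1 in Pde6h, and 1 day 20 peak in Pde6d. On the cGMP side 9 of 14 had one, with 38 in Prkg1, a gene of 1201 kb, 7 in Prkg2, a kinase needed for growth plate chondrocytes to mature, and 5 in Npr3.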

How the data were processed

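DNA of ATDC5 cells was captured for 5hmC (Hydroxymethyl Collector) before sequencing, per the labels' protocols. Per the file headers, the authors deposited, for either stage, the places where merged libraries reached 10-fold enrichment. No reference for that enrichment was given in these sources. The submitters' processing notes list GRCm38 (mm10), MACS 1.4.2, BWA, cutadapt and FastQC without saying what each was used for. The deposited values are start and end in bp, a gene symbol and a transcript accession. In 3 day 20 entries the end was unreadable, and they were left out. None of the 3 named a member. Widths count both end bases.

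Members were matched by the authors' symbol. Gene positions came from RefSeq genes of GRCm38.p6, which gave gene start and end without exons, so exonic and intronic positions were not used here. Starts and strand came from RefSeq promoter windows of 300 bases. All 46 members matched the gene table and 36 the promoter table. Shares have Wilson 95% intervals, counts per length exact Poisson intervals and median widths intervals from order statistics. No p-value was computed. Members and gene lists were chosen with earlier results of these data known. Every member is accounted for. Those with a day 0 peak, the 3 with the most day 20 peaks of each family, those with a peak within 1 kb of a start and the widest peaks were taken in full. Of each related list, up to 3 genes with the most day 20 peaks and those with a day 0 peak were named. Gnas, Pthlh and Pth1r were named after their values were seen. The overlap step was tested on simulated peaks in 950 genes of chromosome 1, where the planted number was recovered in each. Python 3.11.15, numpy 2.4.6, pandas 2.3.3, scipy 1.17.1 and matplotlib 3.10.9 were used.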

Additional observations from a re-analysis of the deposited data

How the results depend on the processing

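Replicates were merged before deposit, so none could be left out, and no stricter enrichment could be set without a value per peak. Of 95 alternative values, 80 stayed within 1.5 times a count or within the interval of a share, rate or median. With only peaks at least as wide as the median of the list, the 322 day 20 peaks of members became 155, those of phosphodiesterases 78, of kinase subunits 15, of anchors 13 and of CREB factors 11. Members with a peak then fell from 44 to 32 of 46, which is within 1.5 times as a count. Kinase subunits with a peak fell to 3 of 6 and CREB factors to 1 of 3. Phosphodiesterases fell from 21 to 16 of 22, cyclases from 10 to 8 of 10 and anchors from 5 to 4 of 5. The share of all protein-coding genes with a peak that wide is not given here. By gene body, CREB factors held 40 peaks, or 7.19 per 100 kb, and 41 with 5 kb on both sides, through the 5′ part of Creb5. Median peaks per 100 kb over cyclase genes was 6.87, against 4.27 over their summed length. Without Prkar1b the median width of kinase subunit peaks was 475 bp. The share near a start was 7.69% within 1 kb, 16.8% within 10 kb and 6.07% in members over 100 kb. The last setting, matching by transcript accession, family widths without the gene with the most peaks, and older symbols were added after seeing the data.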
